A study of Mus musculus with 2 samples.

Results

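Transcripts of 7 intracellular serpins of cytotoxic T cells were followed in OT-I cells, CD8+ T cells whose receptor recognizes the ovalbumin peptide SIINFEKL. The genes were taken by symbol, *Serpinb9*, *Serpinb9b*, *Serpinb6a*, *Serpinb6b* and *Serpinb1a* of clade B and *Serpina3f* and *Serpina3g* of the clade A3 cluster, and they are 7 of 14732 gene symbols listed in at least 1 library. Lymph nodes and spleens of C57BL/6 mice carrying the OT-I transgene, aged 6 to 8 weeks, were the source. The cells were activated for 24 h with peptide (2.5 ng/mL) and IL-2 (10 U/mL) and then received a retrovirus. The vector carried human CD2 alone in the control (Ctrl) or together with Eomes, a T-box transcription factor, in Eomes-overexpressing cells, and human CD2-positive cells were sorted 48 h later. Both groups were given the same peptide and IL-2 again for 3 days, at 40000 cells per well. Each group is 1 library (called the control and the Eomes library), which allows neither a replicate check nor a p-value for any value below. Overexpression was driven by the vector in cultured cells, and in bulk RNA fewer cells of a type and less RNA per cell cannot be told apart.

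Serpins are protease inhibitors that offer an exposed reactive centre loop as bait. The protease cuts the loop, stays bound to the serpin and is inactivated. Cytotoxic T cells kill with granzymes, serine proteases stored in lytic granules beside cathepsins, and the intracellular serpins of clade B act on proteases that leak into the cytosol of the killer cell itself. *Serpinb9* (also Spi6) inhibits granzyme B, *Serpinb6b* (Spi12) inhibits mouse granzyme A and *Serpinb9b* (SPI-CI) inhibits mouse granzyme M. *Serpinb6a* (Spi3) inhibits cathepsin G, *Serpinb1a* inhibits neutrophil elastase and related proteases, and *Serpina3g* (Spi2A) inhibits cysteine cathepsins of the lysosome. *Serpina3f* is its neighbour in a cluster of recent gene copies.

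The loop is the part of a serpin that meets the protease, and the coding bases of the loop are shown to make the pairs of the clade B set readable. Each stretch has 75 bases (25 codons) from the conserved serpin hinge onward, taken from GENCODE vM21 transcripts. Capitals mark positions, counted from the hinge without gaps, at which the 2 genes of a pair have different bases. Past an insertion or deletion, capitals can mark a shift rather than a changed base.
Serpinb9: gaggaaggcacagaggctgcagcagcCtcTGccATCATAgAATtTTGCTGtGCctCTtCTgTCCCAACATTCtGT
Serpinb9b: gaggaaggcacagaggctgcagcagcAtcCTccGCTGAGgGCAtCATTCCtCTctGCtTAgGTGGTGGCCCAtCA
Serpinb6a: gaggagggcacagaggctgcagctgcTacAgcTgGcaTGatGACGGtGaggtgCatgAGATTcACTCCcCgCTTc
Serpinb6b: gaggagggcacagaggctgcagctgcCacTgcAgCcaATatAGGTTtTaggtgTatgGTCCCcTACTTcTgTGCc
These stretches lie within single coding exons on mm10, at chr13:33015693-33015767 (*Serpinb9*, plus strand), chr13:33039796-33039870 (*Serpinb9b*, plus), chr13:33918125-33918199 (*Serpinb6a*, minus) and chr13:32978201-32978275 (*Serpinb6b*, plus). *Serpinb9* and *Serpinb9b* had the same base at 86.0% of coding positions when aligned with gaps, positions in gaps left out. Compared position by position from the hinge, without gaps, they had the same base at 50.7% of loop positions. For *Serpinb6a* and *Serpinb6b* the shares were 86.3% and 64.0%. Both pairs thus had the lower share in the loop, but the 2 shares are unlike measures. *Serpinb9* and *Serpinb9b* have 1122 and 1131 coding bases, with the hinge at base 970 in both. Their lengths therefore differ after the hinge, as do those of *Serpinb6a* and *Serpinb6b*. The loop shares may be too low for this reason, and the loops were not aligned with gaps. Of all 50-base stretches of the transcript used, 0.380% of *Serpinb9*, 0.499% of *Serpinb9b*, 2.68% of *Serpinb6a*, 3.12% of *Serpinb6b* and 3.42% of *Serpinb1a* also occur in transcripts of another gene. The shares were larger for *Serpina3f* (10.7%) and *Serpina3g* (16.02%), so their read numbers are less certain. Both share stretches with each other and with *Serpina3i*. *Serpina3g* also shares them with *Serpina3h*, and *Serpina3f* with *Serpina3e-ps*.

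The granzyme B and granzyme A inhibitors were the abundant serpins of the set that stood higher in Eomes-overexpressing OT-I cells. *Serpinb9* was at 2.50 times and *Serpinb6b* at 2.17 times the control level, while *Serpinb6a*, *Serpina3f* and *Serpina3g* stayed within 1.5-fold. *Serpinb1a* was also past 1.5-fold but at a very low level, and *Serpinb9b* was under an RPKM of 1 in both libraries. RPKM is a read number scaled to transcript length and library depth, so levels of different genes can be compared. A gene was called expressed when either library listed it at 1 RPKM or more, and higher or lower when its fold passed 1.5 (0.58 on the log2 scale), the fold threshold of the study. Log2 ratios are Eomes-overexpressing over control. Of the 7 serpins, 6 were expressed, and 3 of these were higher, 3 within 1.5-fold and 0 lower. *Serpinb1a*, 1 of the 3 higher, was under 1 RPKM in control and passed this minimum only through the Eomes library, where it was higher, so its place in the count is no support for a difference. Among all 9925 expressed genes 2.46% were higher and 5.19% lower, 7.65% in all. The median log2 ratio was 0.44 over the 6 expressed serpins and -0.0037 over all expressed genes. The median of the serpins was 0.26 with 1 RPKM added to every value and 0.17 at a minimum of 5 RPKM, which leaves out *Serpinb1a*.

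**Figure D1:**
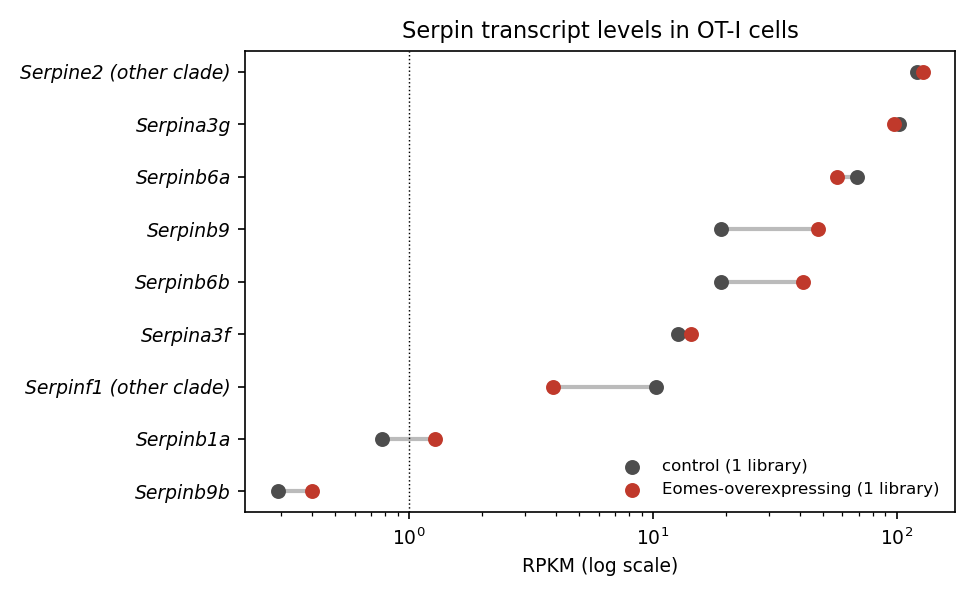
RPKM on a log axis of the 7 serpins studied and of the other serpins with an RPKM of at least 1, with 1 point for the control and 1 for the Eomes-overexpressing library (no replicates, no error bars). The dotted line marks an RPKM of 1. *Serpinb9* and *Serpinb6b* moved from 19 each to 47.5 and 41.3, toward the level of *Serpinb6a* at 57.2.

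*Serpinb9* had 19.02 RPKM in the control library against 47.54 in the Eomes library. Its log2 ratio was 1.32, and about 1303 and 3277 reads, approximated from RPKM, transcript length and depth, give an interval of 1.23 to 1.42. Such intervals are exact binomial ones (Clopper-Pearson, 95%), hold for counting error alone and set 1 library against the other rather than condition against condition. The whole interval lies above 1.5-fold. *Serpinb9* was at position 35 of the 9925 expressed genes when these are ranked by log2 ratio, highest first. By level it moved from position 3934 to position 1908 among the listed genes. Among 2889 expressed genes with a mean RPKM of 20 to 100, a range that includes *Serpinb9*, 95% of genes fell between log2 ratios of -0.46 and 0.40, and 0.796% were more than 1.5-fold higher.

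*Serpinb6b* was almost level with *Serpinb9* in the control library, at 19 RPKM, and was at 41.28 in the Eomes library. The log2 ratio was 1.12 (interval 0.999 to 1.24 from about 819 and 1790 reads), at position 50 of the expressed genes. In control the counting intervals of the 2 levels overlapped, from 18.0 to 20.1 for *Serpinb9* and from 17.7 to 20.4 for *Serpinb6b*. In Eomes-overexpressing cells they did not, with 45.9 to 49.2 and 39.4 to 43.2. The annotation gives *Serpinb6b* coding transcripts of 1719 to 2193 bases, and with the shortest the interval was 0.98 to 1.26.

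*Serpinb6a*, the close relative of *Serpinb6b*, had the second highest level of the set, 69.11 RPKM in the control library against 57.22 in the Eomes library. Its log2 ratio was -0.27 (interval -0.36 to -0.18 from about 2238 and 1864 reads), lower than in control but within 1.5-fold. In control *Serpinb6a* was at 3.64 times the level of *Serpinb6b* and 3.63 times that of *Serpinb9*, and in Eomes-overexpressing cells at 1.39 and 1.204 times. The 3 levels were thus closer together in the Eomes library, with *Serpinb6a* still the highest of them. *Serpinb6a* overlaps *Nqo2* and *Ripk1* on the opposite strand, and whether the libraries kept strand is not given in the sources used here. These overlaps are of whole gene spans, and exons were not compared. Only where exons overlap could reads belong to either gene. The log2 ratios of *Nqo2* and *Ripk1* were 0.36 and 0.22.

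The remaining clade B genes were scarce. *Serpinb1a* had 0.78 RPKM in the control library against 1.28 in the Eomes library. The log2 ratio of 0.71 rests on about 29 and 48 reads, with an interval of 0.023 to 1.44 that reaches from almost no difference to well past 1.5-fold. It was 0.36 with 1 RPKM added to both values, no longer past 1.5-fold, and with the shortest annotated coding transcript (759 bases) the interval spanned 0 with a lower end of -0.37. *Serpinb9b* had 0.29 and 0.40 RPKM, a log2 ratio of 0.46 from about 19 and 26 reads (interval -0.47 to 1.38), so no difference was detectable at this depth. *Serpinb9* was at 65.6 times the level of its relative *Serpinb9b* in control and at 118.85 times in Eomes-overexpressing cells.

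The clade A3 genes were close to their control levels. *Serpina3g*, the cathepsin inhibitor, was the most abundant gene of the set in both libraries, with 102.19 RPKM in the control library against 97.82 in the Eomes library. Its log2 ratio of -0.063 has an interval of -0.13 to 0.0044 from about 3611 and 3478 reads, which leaves out a difference of 1.5-fold in either direction between these libraries. *Serpina3f* had 12.76 and 14.36 RPKM, a log2 ratio of 0.17 (interval 0.0031 to 0.33 from about 564 and 638 reads). The interval lies just above 0, and with the shortest annotated coding transcript (2042 bases) it ran from -0.0057 to 0.34. The levels of the 7 genes had the same order in both libraries, from *Serpina3g* through *Serpinb6a*, *Serpinb9*, *Serpinb6b*, *Serpina3f* and *Serpinb1a* to *Serpinb9b*. Neighbours in this order had intervals that did not overlap, except *Serpinb9* and *Serpinb6b* in control. The summed RPKM of the 5 clade B genes was 108.2 in the control library and 147.7 in the Eomes library, and that of the 2 clade A3 genes 114.95 and 112.18.

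**Figure D2:**
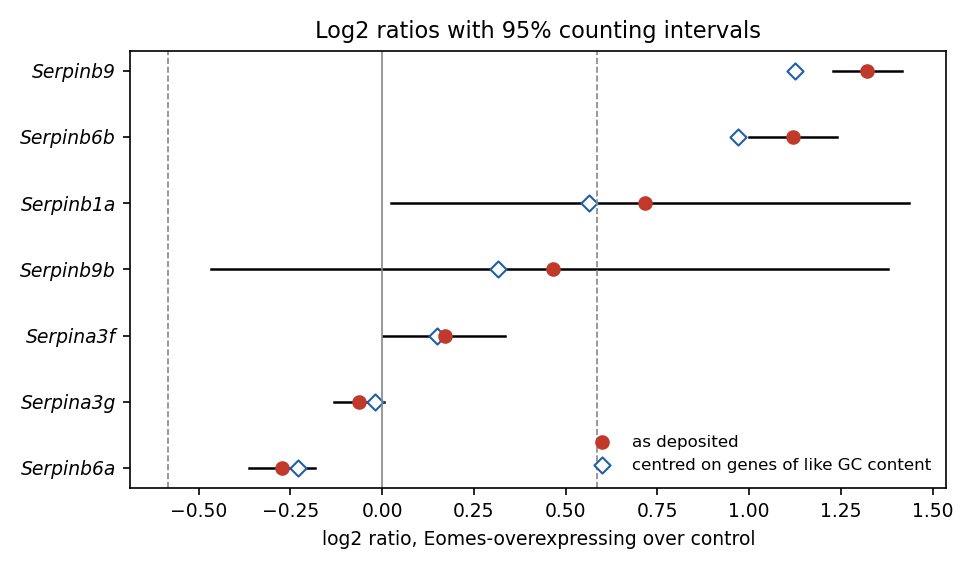
Log2 ratios (Eomes-overexpressing over control, 1 library each) of the 7 serpins as red points with 95% counting intervals as lines, and the same ratios less the median of expressed genes of like GC content as open diamonds. Dashed lines mark 1.5-fold. The intervals of *Serpinb9* and *Serpinb6b* lie wholly beyond 1.5-fold, those of *Serpinb1a* and *Serpinb9b* span it.

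GC content moved with these ratios. Over 20 bins of expressed genes by transcript GC content the median log2 ratio was 0.28 in the bin of lowest and -0.091 in the bin of highest GC content. The 4 serpins with log2 ratios above 0.4 were the 4 with the lowest GC content. It was 42.1% for *Serpinb9*, 44.1% for *Serpinb6b*, 43.6% for *Serpinb1a* and 44.2% for *Serpinb9b*, where expressed genes in the same of 20 GC bins had a median log2 ratio of 0.20 for *Serpinb9* and 0.15 for the others. *Serpinb6a*, *Serpina3f* and *Serpina3g* had 50.3%, 49.1% and 50.6%, with bin medians of -0.042, 0.020 and -0.042. With the bin median taken off, *Serpinb9* was at 1.12 and *Serpinb6b* at 0.97, still past 1.5-fold, while *Serpinb1a* was at 0.56 and no longer past it.

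**Figure D3:**
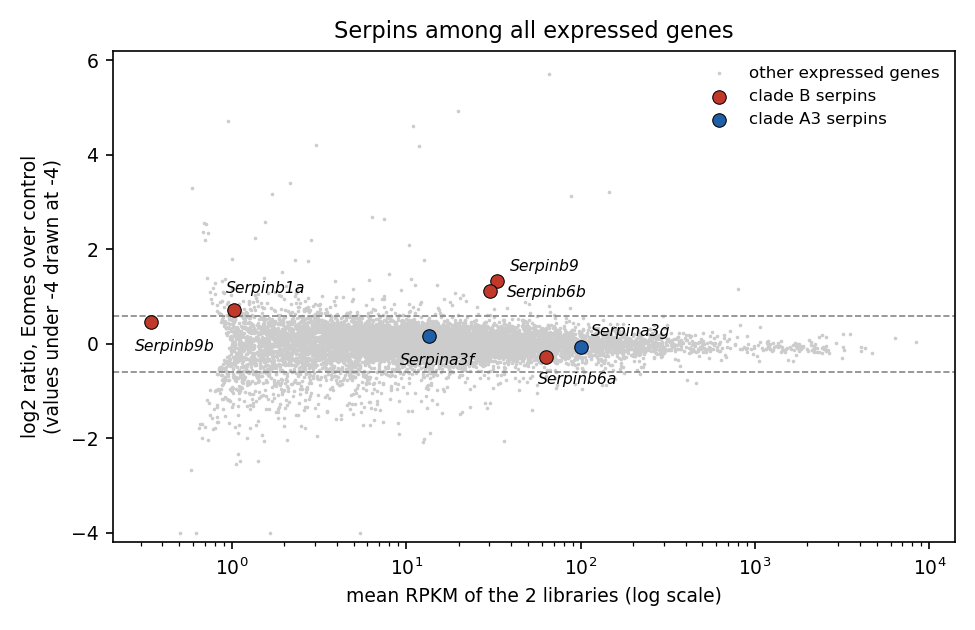
Log2 ratio against mean RPKM of both libraries (log axis) for the expressed genes in grey, with the 5 clade B serpins in red and the 2 clade A3 serpins in blue (*Serpinb9b* is shown although it is under 1 RPKM). Dashed lines mark 1.5-fold, and log2 ratios under -4 are drawn at -4. *Serpinb9* and *Serpinb6b* stand apart from genes of like abundance, while *Serpinb6a*, *Serpina3f* and *Serpina3g* lie among them.

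The clade B genes lie on chromosome 13 in 2 groups. *Serpinb1a* (mm10 chr13:32842092-32851185, minus strand), *Serpinb6b* (chr13:32965209-32979067, plus), *Serpinb9* (chr13:33003250-33017957, plus) and *Serpinb9b* (chr13:33027416-33041884, plus) follow each other, and 24.2 kb separate *Serpinb6b* from *Serpinb9*. *Serpinb6a* (chr13:33917918-34002794, minus) is 876 kb beyond *Serpinb9b*. The 4 genes of the first group had log2 ratios above 0 (the interval of *Serpinb9b* spans 0), and *Serpinb6a* had one below 0. Within 150 kb of the clade B genes, 6 other genes were expressed. Of these 0 were higher and 1, *Tubb2b* (log2 ratio -0.66), was lower, against 2.46% and 5.19% of all expressed genes. Counts over so few genes do not set these neighbours apart. Only *Wrnip1*, next to *Serpinb1a*, lies near the first group, and its log2 ratio was 0.028. The others, *Nqo2*, *Ripk1*, *Bphl*, *Tubb2a* and *Tubb2b*, lie around *Serpinb6a*. *Serpina3f* (chr12:104214544-104221129, plus) and *Serpina3g* (chr12:104236245-104241939, plus) are 15.1 kb apart on chromosome 12.

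**Figure D4:**
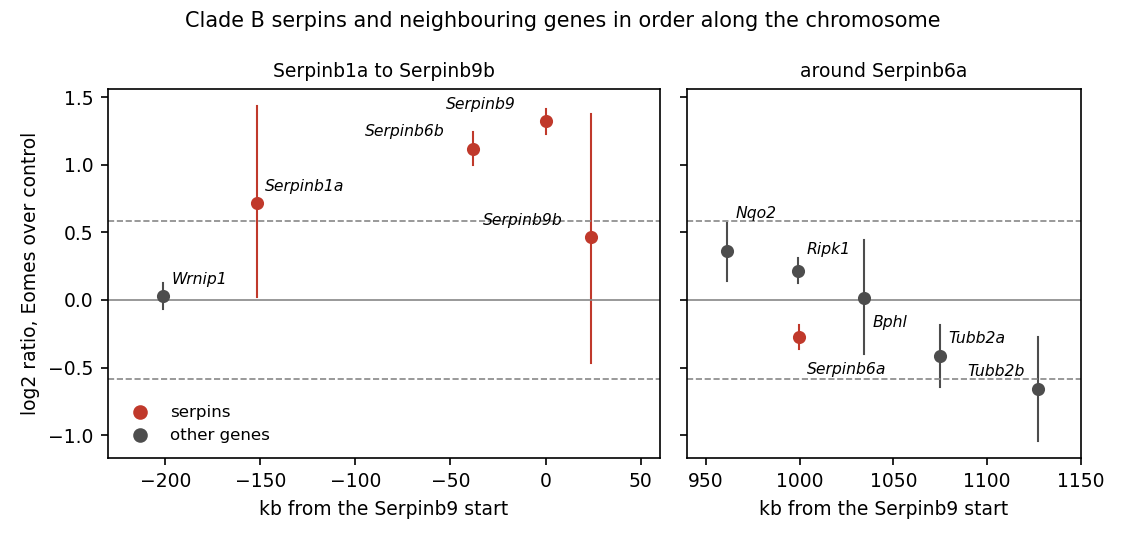
Log2 ratios with 95% counting intervals of clade B serpins (red) and other expressed genes within 150 kb (grey), by the distance of their start from that of *Serpinb9* in kb, in 2 panels with different ranges. The adjacent *Serpinb6b* and *Serpinb9* had log2 ratios of 1.12 and 1.32 and *Serpinb6a*, 1000 kb away, had -0.27.

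Sequence upstream of the start was examined for the T-box element GGTGTGA, its shorter core GGTGT, which the element contains, and the interferon-responsive GAS element TTCNNNGAA, on both strands. RefSeq promoters (GRCm38.p6, 250 bases before the start) were matched for 6 of the 7 serpins, with 8 starts in all and none for *Serpinb1a*. These starts can differ from the gene starts given above. The *Serpinb9* window lies inside the gene as annotated (chr13:33003250-33017957), so the sequence before that gene start was not searched. The element GGTGTGA was in 0 of the 8, against 3.33% of all 32851 promoters. The core GGTGT was in 3 promoters, those of *Serpinb9*, *Serpinb6b* and the first start of *Serpina3f*, against 36.2% of all promoters. The GAS letters were in *Serpina3g*, in the first start of *Serpinb6a* and in both starts of *Serpina3f*, against 7.02% of all promoters. The 2 windows of *Serpina3f* overlap and hold the same match. A match describes letters in this window and says nothing of binding. The promoters of the 2 serpins with the largest ratios are shown with core matches in capitals, for *Serpinb9* chr13:33004291-33004540 (plus strand) and for *Serpinb6b* the 198 bases before the first annotated exon, chr13:32965011-32965208 (plus).
Serpinb9: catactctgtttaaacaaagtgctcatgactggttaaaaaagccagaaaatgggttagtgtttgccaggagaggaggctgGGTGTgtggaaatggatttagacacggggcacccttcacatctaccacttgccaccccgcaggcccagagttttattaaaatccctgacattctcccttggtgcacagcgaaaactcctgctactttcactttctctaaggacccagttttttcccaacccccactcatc
Serpinb6b: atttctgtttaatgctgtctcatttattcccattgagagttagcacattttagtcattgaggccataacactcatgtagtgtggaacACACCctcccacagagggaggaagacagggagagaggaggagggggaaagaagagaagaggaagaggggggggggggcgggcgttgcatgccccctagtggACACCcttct
The promoters of the clade A3 pair, whose ratios were near 0, are shown because they share a stretch of sequence, for *Serpina3f* chr12:104214294-104214543 and for *Serpina3g* chr12:104235897-104236146 (both plus), with core and GAS matches in capitals.
Serpina3f: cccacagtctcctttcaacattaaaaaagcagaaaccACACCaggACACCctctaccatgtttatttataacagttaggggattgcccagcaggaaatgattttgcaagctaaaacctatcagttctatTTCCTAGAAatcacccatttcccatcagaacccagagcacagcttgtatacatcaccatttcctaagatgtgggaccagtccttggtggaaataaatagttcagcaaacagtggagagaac
Serpina3g: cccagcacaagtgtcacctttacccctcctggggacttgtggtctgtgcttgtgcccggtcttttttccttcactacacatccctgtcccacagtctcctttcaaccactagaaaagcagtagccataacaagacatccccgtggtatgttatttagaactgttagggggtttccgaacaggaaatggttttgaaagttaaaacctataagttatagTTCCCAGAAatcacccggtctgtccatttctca
The best local alignment of the *Serpina3f* and *Serpina3g* promoters covered 144 bases, 82.6% of them identical. *Serpinb9* and *Serpinb9b* were alike over 149 bases (78.5% identical), although *Serpinb9b* transcripts were scarce and its promoter held no match to any of these letters. *Serpinb9* and *Serpinb6b*, the pair that stood higher together, aligned over 23 bases (73.9% identical). *Serpinb6b* and the first start of *Serpinb6a*, whose ratios had opposite signs, aligned over 62 bases (75.8% identical). The length at which unrelated windows align was not worked out. Whether shared sequence bears on the ratios was not tested.

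The granzymes differed in their own levels, and only *Gzmb*, *Gzma* and *Gzmm* encode targets named above. Of 10 granzymes, 9 were expressed, and 6 of these were higher, 3 within 1.5-fold and 0 lower, with a median log2 ratio of 1.17. Among all expressed genes 2.46% were higher and 5.19% lower. The 6 include *Gzma* and *Gzmm* but not *Gzmb*, and the rest are not among these targets. *Gzmb*, the target of *Serpinb9*, had 8306.38 RPKM in the control library against 8562.92 in the Eomes library, a log2 ratio of 0.044. Per length, *Gzmb* transcripts were at 437 times the level of *Serpinb9* in control and at 180.1 times in Eomes-overexpressing cells. *Gzma*, the target of *Serpinb6b*, had 490.42 and 1099.77 RPKM, a log2 ratio of 1.17, close to the 1.12 of its inhibitor. The level of *Gzma* was 25.8 and 26.6 times that of *Serpinb6b*, so the inhibitor and protease transcripts kept almost the same proportion. *Gzmm*, the target of *Serpinb9b*, is 1 of the 6 but passed the minimum only through the Eomes library, at 0.75 and 1.22 RPKM (log2 ratio 0.70, interval -0.17 to 1.60 from about 19 and 31 reads).

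Perforin, the pore-forming protein that lets granzymes into the target cell, had 709.13 and 940.31 RPKM for *Prf1* (log2 ratio 0.41). The other granzymes higher in Eomes-overexpressing cells were *Gzmk*, *Gzmd*, *Gzme* and *Gzmg*, with log2 ratios of 4.93, 3.20, 3.12 and 2.64. *Gzmd*, *Gzme*, *Gzmf* and *Gzmg* are near copies, and the split of reads among them is uncertain. *Gzmf* (log2 ratio 0.54) and *Gzmc* (-0.25) were within 1.5-fold.

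None of the expressed cathepsins was higher past 1.5-fold. Among all expressed genes 2.46% were higher and 5.19% lower, so 0 higher among so few genes does not set the cathepsins apart. Of 10 cysteine cathepsins, 7 were expressed, 0 were higher and 1 was lower, with a median log2 ratio of -0.31. *Ctss*, the cathepsin S of antigen presentation, had 17.11 RPKM in the control library against 9.20 in the Eomes library (log2 ratio -0.90, interval -1.12 to -0.67). *Ctsz* (-0.55), *Ctsb* (-0.37), *Ctso* (-0.31), *Ctsl* (-0.11), *Ctsc* (0.0075) and *Ctsw* (0.19) were within 1.5-fold. *Serpina3g* was at 2.34 times the level of *Ctsb* in control and 2.89 times in Eomes-overexpressing cells, and at 34.2 and 35.3 times that of *Ctsl*. The other expressed cathepsins, *Ctsd* (0.24), *Ctse* (-0.024) and *Ctsa* (-0.27), were also within 1.5-fold. Of the proteases that *Serpinb6a* and *Serpinb1a* inhibit in neutrophils, *Elane* was listed in neither library, *Prtn3* had 0.16 and 0.11 RPKM, and *Ctsg* was listed in Eomes-overexpressing cells only, at 0.41. Cystatins are inhibitors of cysteine cathepsins outside the serpin family. Of 9 of them, 3 were expressed, with log2 ratios of -0.15 (*Cst3*), -0.40 (*Cstb*) and -0.41 (*Cst7*), all within 1.5-fold.

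**Figure D5:**
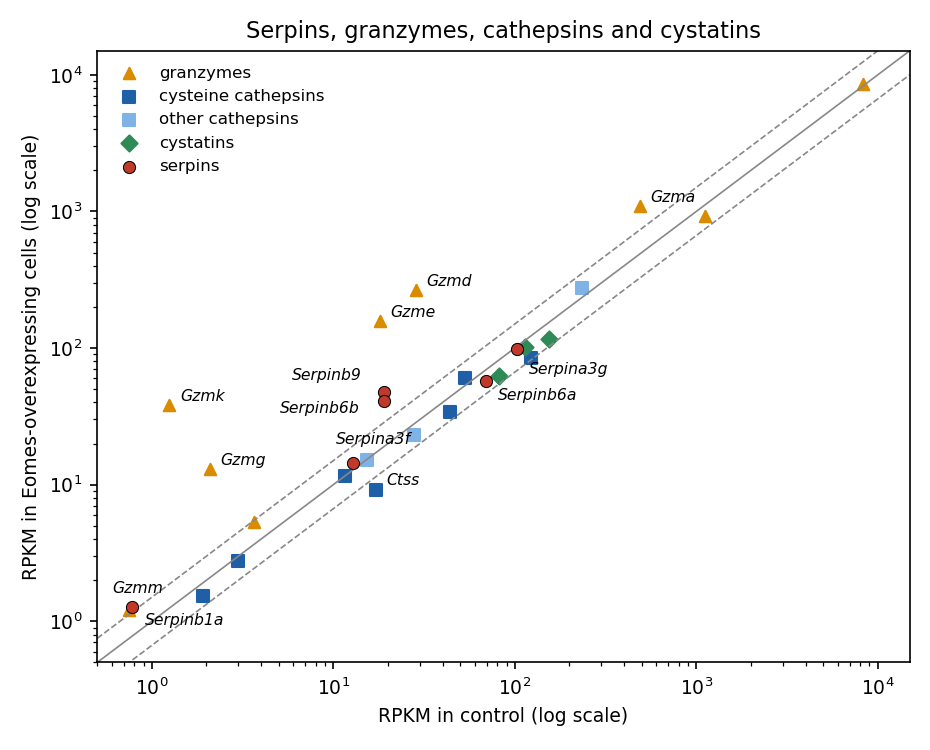
RPKM in Eomes-overexpressing against control cells (both log axes) for expressed serpins of the set, granzymes, cathepsins and cystatins, 1 library each. The solid line marks equal levels and dashed lines 1.5-fold, and the serpins and all genes beyond the dashed lines are named. 6 granzymes and 3 serpins lie above the upper line and *Ctss* lies below the lower one.

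Serpins outside the set gave 2 further expressed genes. *Serpine2*, which encodes the secreted protease nexin-1, had the highest RPKM of all serpins, 121.14 in control and 127.73 in Eomes-overexpressing cells (log2 ratio 0.076). *Serpinf1*, which encodes the secreted non-inhibitory serpin PEDF, had 10.33 and 3.89 RPKM, a log2 ratio of -1.41 (interval -1.69 to -1.12 from about 371 and 141 reads). The set held 62.4% of the summed RPKM of the 28 listed serpins in the control library and 65.9% in the Eomes library.

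*Eomes* was at 2.47 RPKM in the control library against 129.64 in the Eomes library. The CD8+ T cell label was checked against its markers. *Cd3d*, *Cd3e*, *Cd3g*, *Cd8a* and *Cd8b1* were between 99.1 and 264.4 RPKM in both libraries, *Trac* was not listed, and *Cd4* was at 0.08 or less. All 5 listed CD8+ T cell markers were at lower levels in the Eomes library, with counting intervals wholly below 0 and a summed RPKM of 978.11 against 719.98. Their log2 ratios were -0.25 (*Cd3d*), -0.24 (*Cd3e*), -0.43 (*Cd3g*), -0.47 (*Cd8b1*) and -0.88 (*Cd8a*), the last past 1.5-fold. Of 25 markers of CD4+ T cells, B cells, NK cells, macrophages, neutrophils, dendritic cells, mast cells and basophils, 15 were listed and 5 reached an RPKM of 1. All listed markers summed to 8.99 RPKM in the control library and 18.7 in the Eomes library, and the highest was 5.74 (*Klrb1c*, an NK cell receptor gene, 0.31 in control). Of the 5, *Cd79b* and *Xcr1* were lower. *Mcpt8*, a basophil protease gene near *Gzme* and *Gzmd* on chromosome 14, was at 0.37 and 3.94, and *Cd68* at 2.68 and 4.59. *Klrb1c* and *Mcpt8* passed the minimum only through the Eomes library. *Cpa3*, a marker of the same list as *Mcpt8*, was not listed in control and at 0.07 in the Eomes library. Under 1 RPKM, the neutrophil marker *Ly6g* was not listed in control and at 0.60 in the Eomes library (about 0 and 11 reads), and *Itgam* was at 0.01 and 0.16 (about 1 and 15 reads). The 10 markers listed in neither library were *Ms4a1*, *Pax5*, *Ncr1*, *Csf1r*, *Adgre1*, *Lyz2*, *Elane*, *S100a8*, *S100a9* and *Fcer1a*. The part of these marker differences in the serpin ratios was not tested.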

How the data were processed

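Total RNA of 2 libraries, 1 per condition, was sequenced on an Illumina instrument. Per the study's methods, reads were filtered with SOAPnuke and mapped to mm10 with HISAT and Bowtie2, and RSEM gave the values (versions not given in the sources used here). The authors deposited FPKM, 1 value per gene symbol and library with 2 decimals, listed from 0.01 upward and called RPKM in the methods. No normalization between libraries is stated. Symbols turned into dates (20 and 19) were left out.

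Python 3.11.15 with pandas 2.3.3, scipy 1.17.1 and numpy 2.4.6 gave the log2 ratios, and values not listed were set to 0.01. With 1 library per group there is no test. Depth was read from low values (0.05 to 1 RPKM) of single-transcript genes of 500 to 2500 bases. At 19875000 reads (control) and 20000000 reads (Eomes), with 25 bases taken off each length, 50.7% of 276 and 50.9% of 267 values lay within 0.0051 of a whole-read step, where the spacing of the steps alone gives 29.5% and 29.7%. Depth and the bases taken off were those with the best fit, a choice for which the spacing shares make no allowance. With 0 to 100 bases taken off, the best depths were between 19475000 and 21400000 reads, with 47.1% to 50.9% on a step. Reads are therefore approximate, from the longest coding transcript of GENCODE vM21 (mm10). The calculation was also run on data simulated with these same lengths and depths. That run checks the calculation and cannot check the lengths, depths or read numbers themselves. Coding sequences and promoters were aligned with Biopython. The T-box and GAS letters and the 150 kb window were chosen after values were seen. The genes named are the 7 serpins, expressed members of the serpin, granzyme, cathepsin and cystatin lists, *Eomes* and markers, and the members and lists were chosen with earlier results of these data known. Other genes were named after their values were seen. Alternatives were added pseudocounts, other scalings, GC centring, other minimum RPKM values and a 2-fold threshold. Eomes binding data were not used here.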

Additional observations from a re-analysis of the deposited data

How the results depend on the processing

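No paired analysis was possible because each group has 1 library. Of 42 log2 ratios of single serpins under alternatives, 40 stayed inside the counting interval, and the other 2, *Serpinb9* and *Serpinb6b* centred by GC content, stayed past 1.5-fold at 1.12 and 0.97. The number of serpins more than 1.5-fold higher was 3, and 2 (without *Serpinb1a*) with 1 RPKM added, with GC centring, at 2-fold and at a minimum RPKM of 5. The number lower was 0 throughout these alternatives. The median log2 ratio of the expressed serpins, 0.44, was 0.26 with 1 RPKM added and 0.17 at a minimum RPKM of 5, where 5 genes remain. Over all expressed genes, 244 higher and 515 lower became 118 and 285 with 1 RPKM added, 69 and 175 at 2-fold, 1356 and 2088 with no minimum RPKM, and 95 and 213 at a minimum of 5. The scalings took -0.032 (TPM), -0.0037 (median) and -0.00011 (trimmed mean) off every log2 ratio. Values without replicates show no spread between cultures, and depth limits *Serpinb1a* and *Serpinb9b* most, at 48 reads or fewer per library.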

Other observations

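Of the 21 other serpins listed, 19 were under an RPKM of 1 in both libraries, and the following were singled out after their values were seen. *Serpinb1b*, beyond *Serpinb9b* on chromosome 13, had 0.15 RPKM in the control library against 0.75 in the Eomes library (log2 ratio 2.32, interval 0.90 to 4.05 from about 5 and 25 reads). *Serpinc1*, which encodes antithrombin, had 0.58 and 0.14 (log2 ratio -2.05, interval -2.99 to -1.17), and *Serpini1*, which encodes neuroserpin, had 0.62 and 0.21 (log2 ratio -1.56, interval -2.45 to -0.75). *Serpinh1*, the collagen chaperone Hsp47, had 0.68 and 0.73. There were 6 serpins listed in control only and 5 in Eomes-overexpressing cells only, all at an RPKM of 0.07 or less.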
